A study of Mus musculus with 14 samples.

Results

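The 106 antisense long noncoding RNA genes described here are those expressed in C2C12 cells, a mouse myoblast line. They are the rows of the deposited FPKM table (sequenced fragments of a gene, scaled by its length and by the depth of the library) whose identifier has the gene type antisense in GENCODE M21, with at least 1 FPKM in at least 3 of the 14 libraries. Of 49585 genes in the table, 2509 had that type, and 1354 of these were at 0 in every library. Rab26os met the level but was left out by name, as the rule also leaves out small nucleolar RNA host genes. The genes were thus chosen by their measured FPKM in these libraries, so the levels themselves and the number of libraries at 1 FPKM or more are given as a description, with no test.

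RNA was compared between quiescent and activated cells that expressed either a control hairpin RNA (shControl) or a hairpin against the forkhead transcription factor FoxM1 (shFoxM1). Quiescent cells had been suspended in medium thickened with methylcellulose, which stops their division, and the labels do not say how activated cells were obtained. There were 3 quiescent shControl, 4 quiescent shFoxM1, 3 activated shControl and 4 activated shFoxM1 libraries. The labels do not say whether libraries of a group came from separate cultures, so each p reflects no more than how these libraries vary, and that variation could be technical. All groups carry a hairpin, and the labels do not say whether a hairpin line is 1 clone or a pool.

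Antisense RNAs are transcribed from the strand opposite to a protein-coding gene, often from a start that lies close to the start of that gene and points away from it. Some, such as Airn and Nespas, act in cis on imprinted neighbours, and others are hosts of microRNAs. For most of the genes below, known only by a clone or model number, no role is established.

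Among these 106 genes, 36 overlapped a coding gene head to head, 27 lay inside one, 26 overlapped tail to tail, 8 ran around one and 6 started next to one without overlap. For the other 3 (BC039966, Gm14286 and Gm43079) no coding gene was found on the other strand within 5000 bases. 54 started within 1000 bases of a coding start on the other strand, 31 of them within 300 bases. 80 shared exon bases with such a coding gene, and the median share was 20.5% of the exon bases over the 84 genes that shared any with a gene on the other strand. In 12 the share was at least 50%, and Gm11175 lay wholly within exons of Jund. Use of strand is not stated for these values, and the kit named in the labels does not mark it, so reads from shared exon bases cannot be assigned to a strand. The other 22 genes shared no exon base with a gene on the other strand. Where such a gene lies inside a coding gene, reads from unspliced RNA of the coding gene could not be told apart either.

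RefSeq windows from 250 bases before to 50 bases after the start (GRCm38.p6) could be matched for 53 of the 106 genes. They held a median of 20 CpG dinucleotides, against 7 in all 32851 windows and 13 in 21263 windows of coding genes. The median was 28 in the 26 windows with a coding start on the other strand within 1000 bases and 16 in the other 27. A CCAAT box (CCAAT) was present in 35.8% of the 53 windows, 37.4% of all windows and 38.2% of coding windows. For the cell cycle homology region (TTTGAA) these shares were 9.43, 17.9 and 16.0%, and for an AP-1 motif (TGANTCA) 5.66, 7.81 and 6.99%. An E2F core (GCGGGAA) was in 7.55, 4.6 and 5.95%, an ETS motif (CCGGAAG) in 11.3, 8.86 and 11.6%, and the E box (CANNTG) in 49.1, 72.3 and 69.0%. Both strands were searched, each motif on its own, so that overlapping matches could count for more than 1 motif.

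4 windows are shown because the RNAs that start in them are described below beside their coding gene. Capitals mark a CCAAT box, cell cycle homology region, AP-1 motif or E2F core on either strand, and each match is a description of letters only. Gm15867, at chr1:192854678-192854977 on the plus strand, fell with its coding neighbour Sertad4 and its window holds 1 AP-1 motif. Med9os, at chr11:59948098-59948397 on the minus strand, starts 64 bases from Med9, and its E2F core also lies in the Med9 window. Kcnmb4os2, at chr10:116472913-116473212 on the plus strand, fell with Kcnmb4 in shControl cells. 2900060B14Rik, at chr1:118459216-118459515 on the minus strand, rose while the gene around it, Clasp1, fell. The CCAAT box in its window lies after the start.
Gm15867: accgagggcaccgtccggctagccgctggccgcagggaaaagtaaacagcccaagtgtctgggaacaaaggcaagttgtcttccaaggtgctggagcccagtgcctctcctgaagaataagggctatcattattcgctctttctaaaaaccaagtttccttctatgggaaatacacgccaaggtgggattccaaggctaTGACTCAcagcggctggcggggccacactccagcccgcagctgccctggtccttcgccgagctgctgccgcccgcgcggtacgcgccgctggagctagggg
Med9os: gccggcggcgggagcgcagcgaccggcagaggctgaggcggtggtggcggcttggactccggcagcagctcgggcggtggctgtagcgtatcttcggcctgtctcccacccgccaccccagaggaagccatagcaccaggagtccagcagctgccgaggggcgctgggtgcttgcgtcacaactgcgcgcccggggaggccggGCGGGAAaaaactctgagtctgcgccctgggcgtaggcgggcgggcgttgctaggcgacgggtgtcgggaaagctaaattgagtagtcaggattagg
Kcnmb4os2: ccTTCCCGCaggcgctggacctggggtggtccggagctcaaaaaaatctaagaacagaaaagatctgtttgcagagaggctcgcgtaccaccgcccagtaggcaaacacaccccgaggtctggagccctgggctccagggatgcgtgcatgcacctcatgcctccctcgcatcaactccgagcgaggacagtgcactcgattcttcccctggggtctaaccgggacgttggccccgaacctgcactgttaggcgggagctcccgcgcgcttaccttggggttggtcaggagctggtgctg
2900060B14Rik: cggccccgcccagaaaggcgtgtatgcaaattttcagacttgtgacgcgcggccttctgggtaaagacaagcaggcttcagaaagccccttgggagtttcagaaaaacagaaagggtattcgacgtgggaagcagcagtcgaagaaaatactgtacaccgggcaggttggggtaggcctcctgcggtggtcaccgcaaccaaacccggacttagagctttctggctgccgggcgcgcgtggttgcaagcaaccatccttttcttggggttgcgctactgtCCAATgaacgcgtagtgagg

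Dnm3os, an antisense RNA inside the dynamin gene Dnm3, was singled out after its values were seen, as the host of 2 microRNA hairpins. Its mature microRNAs in RefSeq are shown with the seed, bases 2 to 8, in capitals. No 2 of the 4 share a seed, and the microRNAs themselves are not measured by these values.
mmu-miR-199a-5p: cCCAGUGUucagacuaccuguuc
mmu-miR-199a-3p: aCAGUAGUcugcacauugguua
mmu-miR-214-5p: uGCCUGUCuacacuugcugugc
mmu-miR-214-3p: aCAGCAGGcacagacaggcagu

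The libraries held an estimated 2.74e+07 to 3.55e+07 reads, and 63 to 91 of the 106 genes reached 1 FPKM in a library. Foxm1 stood between 34.93 and 37.06 FPKM in activated shControl and between 11.21 and 27.58 FPKM in activated shFoxM1 libraries. In quiescent cells it was between 10.01 and 23.87 FPKM with shControl and between 6.61 and 15.56 FPKM with shFoxM1. Its log2 difference was -1.11 in activated cells (limma adjusted p = 0.624) and -0.56 in quiescent cells (adjusted p = 1.0). Quiescent shFoxM1 replicate 4 stood apart at the end of the second principal component, with the lowest mitochondrial share (mitochondrial FPKM at 5.51% of the summed FPKM of coding genes, against 16.5% at the highest) and 69 of the 106 genes at 1 FPKM. Of 14 myotube markers 10 were tested, and all 10 fell in activated shControl cells and 9 of them in activated shFoxM1 cells. Their summed FPKM ranged from 259 to 1760 in quiescent shControl, 86.1 to 953 in quiescent shFoxM1, 60.1 to 78.7 in activated shControl and 19.3 to 96.1 in activated shFoxM1 libraries. Of 8 markers of dividing cells 7 rose in each. Their part in the changes below was not tested. Of the marker lists of endothelial, epithelial, neural and adipocyte cells no gene was tested, and summed FPKM of each list was at most 0.54. Among the immune markers 1 was tested and rose in both activations, while Ptprc, Cd3e and Itgam were below 0.1 FPKM in every library. The summed FPKM of that list was 1.09 to 1.68 in quiescent and 4.18 to 13.6 in activated shControl libraries, and 1.2 to 3.14 and then 1.89 to 9.08 in shFoxM1 libraries. Its part in the changes was not tested either. Of 5 myoblast markers 4 were tested, 2 of which fell in each activation and none rose, and Pax7 stayed below 0.1 FPKM.

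Most of the 106 genes were low. Mean FPKM over the 14 libraries ranged from 0.362 to 24.5 with a median of 1.48, while the median was 12.6 for the 11179 coding genes tested and 1.92 for the 155 lincRNA genes tested, which are noncoding genes between coding genes. In 11 genes the mean was at least 5 FPKM and in 26 it was below 1 FPKM. 42 reached 1 FPKM in all 14 libraries and 12 in exactly 3. At the threshold, the third highest FPKM was 1.0 for Gm13713, 1.01 for Gm27003 and 1.01 for Gm9856 on the inside, and 0.99 for Gm10516, 0.99 for Gm16861 and 0.98 for Gm44777 on the outside. For the 37 genes with 1 transcript, a median of 27.3 estimated reads stood behind each FPKM, and 9 of them had under 10. 73 genes met the level on the quiescent and on the activated libraries each. 27 would not have met it on the activated libraries alone and 12 not on the quiescent ones alone, with some genes in both counts, so a difference in those genes is partly built into the rule. Of the genes called below, 6 are among the 27 and 3 among the 12.

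Tug1, a broadly expressed noncoding RNA that starts 482 bases from the start of Morc2a, had the highest mean. It was at 34.37, 29.72 and 21.96 FPKM in quiescent shControl, 40.34, 38.66, 31.01 and 11.54 in quiescent shFoxM1, 15.06, 17.46 and 17.51 in activated shControl and 27.58, 23.14, 15.79 and 18.19 in activated shFoxM1 libraries. In shControl cells every activated library was below every quiescent one, with a log2 fold change of -0.73 ± 0.35 (SE) and a limma adjusted p of 0.134. In shFoxM1 cells the groups overlapped because quiescent replicate 4 lay below the activated libraries. Brip1os, whose start is 177 bases from that of the helicase gene Brip1, was second at a mean of 13.9 FPKM. It was at 15.2, 10.67 and 7.1 FPKM in quiescent shControl, 14.93, 12.79, 7.79 and 10.34 in quiescent shFoxM1, 16.01, 15.47 and 13.67 in activated shControl and 19.49, 20.44, 13.54 and 16.62 in activated shFoxM1 libraries. These groups overlapped in both activations. 1810034E14Rik (mean 9.87 FPKM), Gm15867 (9.42), Gm43079 (9.11) and Gm11816 (8.25) followed. Neighbours in this order overlapped in their ranges over the 14 libraries. The 559 exon bases of Gm43079 lie wholly within exons of other genes on its own strand, those of the mitochondrial acyl-CoA dehydrogenase gene Acad9, so its value cannot be told apart from that gene.

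Of 5 lists of antisense RNAs with known settings, 4 RNAs are among the 106. Airn and Nespas are 2 of 8 imprinted RNAs on the list that the table holds, Hotairm1 is 1 of 10 from Hox clusters and Zeb2os is 1 of 9 linked to muscle or growth. None of 4 small nucleolar RNA hosts and none of 11 RNAs of developmental regulators is among them. Many listed RNAs have another gene type in the annotation, and 5, 5, 0, 5 and 3 RNAs of the imprinted, Hox, host, developmental and muscle lists had the type antisense. Airn, which silences the paternal copy of Igf2r in mouse, stood at 2.75, 3.98 and 3.5 FPKM in quiescent shControl, 3.77, 4.21, 2.57 and 1.5 in quiescent shFoxM1, 1.71, 1.31 and 1.92 in activated shControl and 1.08, 1.14, 1.04 and 2.57 in activated shFoxM1 libraries. It fell on activation in shFoxM1 cells (log2 fold change -0.69 ± 0.24, SE, limma adjusted p = 0.0381), although activated replicate 4 equalled quiescent replicate 3 and lay above quiescent replicate 4. That call was lost without any one of the first 3 quiescent or first 3 activated shFoxM1 replicates (adjusted p up to 0.123), and in a fit of only the groups compared. In shControl cells its groups did not overlap, and the value was -0.73 ± 0.27 with an adjusted p of 0.0571. Igf2r, the receptor that takes up insulin-like growth factor 2 for degradation, fell in shControl cells by 0.90 on the log2 scale (adjusted p = 0.00527) and was at -0.44 in shFoxM1 cells (adjusted p = 0.069). Airn and Igf2r share no exon base in this annotation. Nespas, opposite the imprinted Gnas gene, was between 0.49 and 2.3 FPKM in all libraries, with log2 fold changes of -0.09 ± 0.24 and 0.26 ± 0.21 (SE) in the activations of shControl and shFoxM1 cells. Hotairm1, from the HoxA cluster, ranged from 0.06 to 10.55 FPKM within the activated shFoxM1 group alone, and its log2 fold changes of 0.27 ± 0.64 and 0.25 ± 0.56 carried the widest errors of the 4.

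Activation in shControl cells lowered more of these RNAs than it raised, in the values as deposited. 14 fell and 7 rose with limma at an adjusted p below 0.05, taken over 12432 genes. The 21 are 19.8% of the 106, against 28.3% of all genes tested (11.7% higher, 16.5% lower) and 25.8% of lincRNA genes. The median log2 fold change was -0.16 over the 106 genes and -0.11 over all genes tested. The balance of higher and lower calls moved with the scaling, being 11 and 9 with median-of-ratios scaling, 13 and 2 with quantile normalization and 4 and 25 with equal sums of coding genes. That last scaling moved the median of all genes to -0.36. In bulk RNA, fewer cells of a type and less RNA per cell cannot be told apart. In 44 of the 106 genes (41.5%) the 3 activated and 3 quiescent libraries did not overlap, against 44.1% of all genes tested. Without quiescent shFoxM1 replicate 4, which enters through the shared estimate of spread, 32 were called. Among shControl libraries, leaving out quiescent replicate 1, 2 or 3 gave 12, 9 and 12, and leaving out activated replicate 1 or 2 gave 11 and 6.

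**Figure D1:**
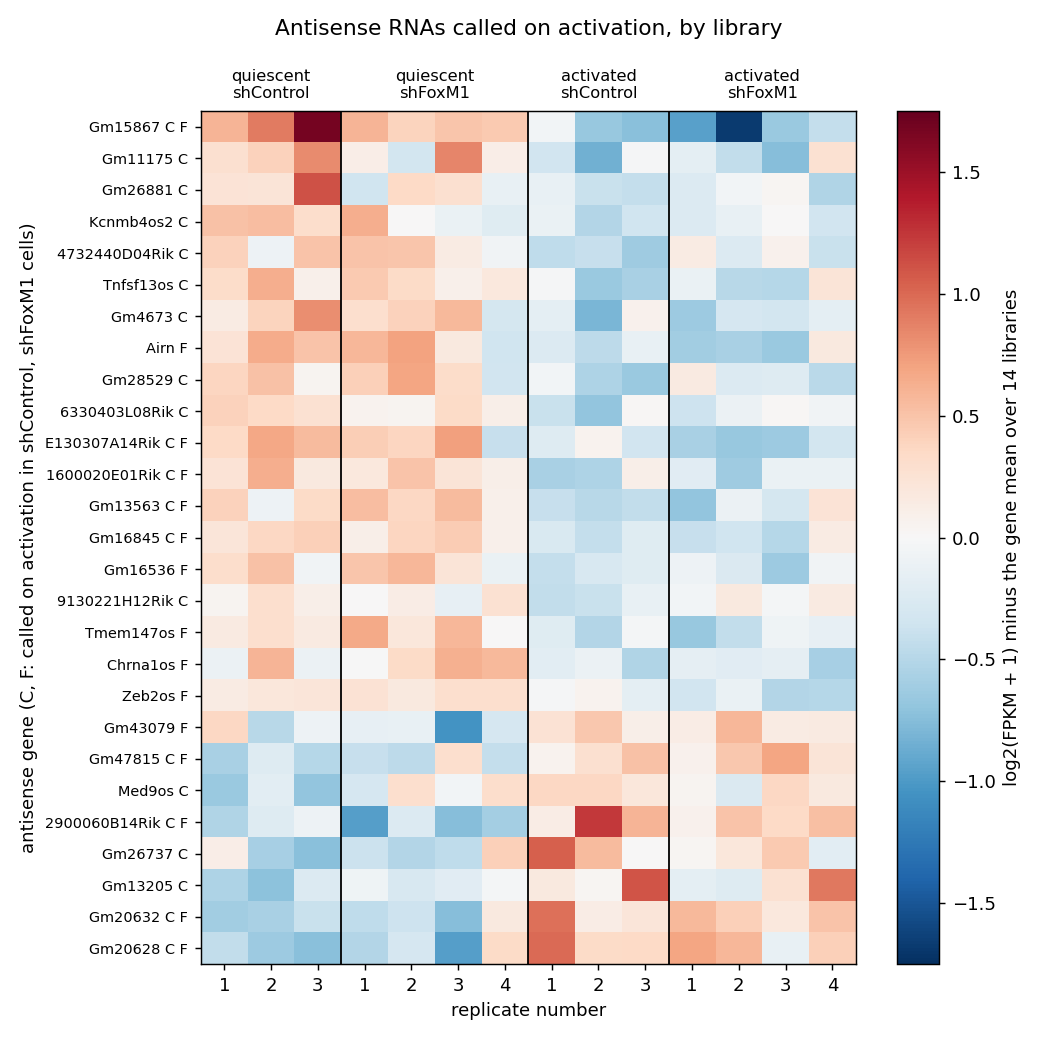
Level in each library of the 27 antisense genes called in either line. Rows are genes (C, called in shControl cells; F, called in shFoxM1 cells), columns are libraries by replicate number, and colour is log2(FPKM + 1) minus the mean of that gene over the 14 libraries. The upper rows are high in the quiescent columns and the lower rows in the activated columns, and quiescent shFoxM1 replicate 4 departs from its group in several rows.

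Among the called genes Gm15867 fell the most (ENSMUSG00000089812, chromosome 1, 192854923 to 192856246, plus strand, GRCm38). It overlaps the first part of Sertad4, a gene of the SERTA domain family, head to head, and 35.6% of its exon bases lie in Sertad4 exons. It stood at 12.31, 15.45 and 26.97 FPKM in quiescent shControl libraries and at 7.47, 4.56 and 4.31 FPKM in activated ones. In shFoxM1 cells it was at 12.29, 10.56, 11.3 and 11.12 FPKM in quiescent and 3.55, 1.76, 4.6 and 5.59 FPKM in activated libraries. Every quiescent library lay above every activated one in both lines. The log2 fold change was -1.54 ± 0.31 in shControl cells (limma adjusted p = 0.00272) and -1.41 ± 0.27 in shFoxM1 cells (adjusted p = 0.00163). Exact permutation tests (two-sided) gave 0.1 and 0.029, the smallest values that 3 against 3 and 4 against 4 libraries allow. These values rest on an estimated 8.75 to 131 reads per library, since the transcript has 388 exon bases. Both calls held without any single library (adjusted p up to 0.0152 and 0.00592). Sertad4 itself fell by 1.765 and 1.64 on the log2 scale, from 35.58 to 45.85 FPKM in quiescent to 8.96 to 13.83 FPKM in activated shControl libraries.

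Gm11175, whose 877 exon bases all lie in exons of Jund, an AP-1 subunit gene, came next among the called genes. It was at 3.89, 4.33 and 6.11 FPKM in quiescent and 2.19, 1.24 and 2.97 FPKM in activated shControl libraries, which do not overlap. Its log2 fold change was -0.90 ± 0.31 (limma adjusted p = 0.0414, lost without any one of 7 libraries), while that of Jund was -0.11 ± 0.29. Gm11175 stood at 5.35% of the level of Jund and, with use of strand not stated, its value cannot be told apart from that gene. Gm26881, opposite Fam214b, was at 1.03, 1.01 and 2.74 FPKM in quiescent and 0.58, 0.31 and 0.29 FPKM in activated libraries. All 3 activated values lay below 1 FPKM, and the log2 fold change was -0.84 ± 0.26 (adjusted p = 0.0272 by limma, lost without quiescent replicate 3 or activated replicate 2 or 3). Fam214b fell as well, by 1.16 on the log2 scale. Gm26881 met the level of the rule only with its quiescent libraries, so its direction was partly set by the choice of genes.

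Kcnmb4os2 starts 715 bases from the start of Kcnmb4, a subunit gene of calcium-activated potassium channels. It stood at 1.09, 1.13 and 0.8 FPKM in quiescent and 0.34, 0.02 and 0.15 FPKM in activated shControl libraries. The groups were apart, with a log2 fold change of -0.78 ± 0.22 (limma adjusted p = 0.016). The call was lost without quiescent or activated replicate 2, and Kcnmb4os2 met the level of the rule only with its quiescent libraries, which partly set its direction. Kcnmb4 fell from 10.88 to 14.72 FPKM in quiescent libraries to 1.92 to 2.67 FPKM in activated ones, a log2 fold change of -2.02 ± 0.27. The fold change of the antisense RNA on the log2(FPKM + 1) scale understates its ratio, since all its values lie near or under 1 FPKM. 34.2% of its exon bases are shared with Kcnmb4.

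4 further genes complete the 8 lowest changes among called genes. 4732440D04Rik, inside the autophagy gene Rb1cc1, was at 3.55, 2.25 and 3.87 FPKM in quiescent and 1.52, 1.61 and 1.23 FPKM in activated shControl libraries (log2 fold change -0.77 ± 0.21). Tnfsf13os, which starts 54 bases from the SUMO protease gene Senp3, was at 1.54, 2.15 and 1.17 FPKM and then 1.01, 0.29 and 0.37 FPKM (-0.76 ± 0.24). Gm4673, which starts 106 bases from the transcription factor gene Usf2, was at 3.17, 3.94 and 5.65 FPKM and then 2.34, 1.16 and 2.99 FPKM (-0.75 ± 0.27). In each of these the quiescent libraries all lay above the activated ones. Gm28529, inside Epc1, a chromatin regulator gene, was at 1.45, 1.71 and 0.96 FPKM and then 0.83, 0.3 and 0.21 FPKM (-0.73 ± 0.26), also without overlap. Tnfsf13os and Gm28529 met the level of the rule only with the quiescent libraries, so their direction was partly set by that choice. Limma adjusted p-values of the 4 ranged from 0.0164 to 0.049. The calls of 4732440D04Rik, Tnfsf13os, Gm4673 and Gm28529 were lost without any one of 2, 4, 10 and 9 of the 14 libraries. Senp3 and Usf2, the coding genes that start next to 2 of them, had log2 fold changes of -0.07 ± 0.13 and 0.04 ± 0.15 and were not called. Of the genes that overlap Tnfsf13os, Tnfsf12 fell (-0.58 ± 0.21, limma adjusted p = 0.0467). Tnfsfm13 was at -0.515 ± 0.20 (limma adjusted p = 0.068). Rb1cc1 and Epc1 were at -0.56 ± 0.38 and -0.48 ± 0.195 and were not called. The other 6 genes that fell had log2 fold changes from -0.70 to -0.46.

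Of the 7 that rose in shControl cells, Gm20628 and Gm20632 gave the largest values and lie in a cluster of histone genes on chromosome 3. Gm20628 (96267075 to 96270289, minus strand) was at 1.41, 1.09 and 0.95 FPKM in quiescent and 5.48, 3.08 and 3.14 FPKM in activated libraries. Gm20632 (96239393 to 96241819, plus strand) was at 2.43, 2.52 and 2.97 FPKM and then 9.18, 4.68 and 5.04 FPKM. All activated libraries lay above all quiescent ones for both genes. Their log2 fold changes were 1.16 ± 0.30 (limma adjusted p = 0.0113) and 0.96 ± 0.24 (adjusted p = 0.0107). Without activated replicate 1 both calls were lost (adjusted p = 0.053 and 0.051). Each encloses replication-dependent histone genes on the other strand that stood at 507.6 to 791.91 FPKM (Hist2h2aa2) and 511.42 to 677.44 FPKM (Hist2h3b) in the quiescent libraries, and these coding genes rose by 1.49 and 1.65 on the log2 scale. The antisense level of Gm20632 was 0.379% of that of Hist2h2aa2, 21.8% of its exon bases are shared, and the histone genes there have near-identical copies, so both values are uncertain.

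2900060B14Rik has 1 exon of 616 bases inside Clasp1, whose product binds the plus ends of microtubules, and shares no exon base with it. It stood at 0.49, 0.85 and 1.02 FPKM in quiescent and 1.35, 4.07 and 2.24 FPKM in activated shControl libraries. In shFoxM1 cells it was at 0.1, 0.82, 0.28 and 0.43 FPKM in quiescent and 1.28, 2.05, 1.74 and 2.11 FPKM in activated libraries. The groups did not overlap in either line, with log2 fold changes of 0.93 ± 0.26 (limma adjusted p = 0.0174) and 1.00 ± 0.23 (adjusted p = 0.00465). The call in shControl cells was lost without quiescent replicate 1 or activated replicate 2 of that line, and with a trend on GC content and length removed. Clasp1 fell in shControl cells by 0.95 on the log2 scale (adjusted p = 0.00814) and was at -0.47 ± 0.20 in shFoxM1 cells (adjusted p = 0.0883). 125 exon bases of 2900060B14Rik are shared with another gene on its own strand, so reads from those bases cannot be told apart from that gene. Their part in the rise was not tested.

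Gm47815, which lies inside Sobp without a shared exon base, showed the same opposite pattern at lower levels. It was at 0, 0.27 and 0.05 FPKM in quiescent and 0.55, 0.8 and 1.12 FPKM in activated shControl libraries (log2 fold change 0.72 ± 0.23, limma adjusted p = 0.0338). In shFoxM1 cells it was at 0.12, 0.08, 0.83 and 0.11 FPKM and then 0.57, 1.06, 1.39 and 0.74 FPKM (0.61 ± 0.20, adjusted p = 0.0331). Groups were apart in shControl cells, and in shFoxM1 cells quiescent replicate 3 lay among the activated libraries. Sobp fell in both lines, by 0.65 and 0.72 on the log2 scale. Each call was lost without any one of 5 libraries, with a trend on GC content and length removed and with equal sums of coding genes. Without the activated libraries neither Gm47815 nor 2900060B14Rik would have met the level of the rule, so their direction was partly set by the choice of genes.

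Med9os and Med9, a gene for a Mediator subunit, start 64 bases apart on opposite strands and share no exon base. Med9os stood at 0.38, 0.9 and 0.34 FPKM in quiescent and 1.77, 1.78 and 1.47 FPKM in activated shControl libraries. These do not overlap, and the log2 fold change was 0.81 ± 0.22 (limma adjusted p = 0.0129). Without any single library the call held (adjusted p up to 0.0489), and with a trend on GC content and length removed it was lost. In shFoxM1 cells Med9os was at 0.76, 1.65, 1.09 and 1.67 FPKM in quiescent and 1.22, 0.81, 1.76 and 1.43 FPKM in activated libraries, which overlap throughout (0.01 ± 0.19, adjusted p = 0.967). Med9 rose in both lines, by 0.64 and 0.65 on the log2 scale. The test of the difference between the Med9os responses gave -0.80 ± 0.285 with an unadjusted p of 0.0135 and an adjusted p of 0.993.

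Gm13205 and Gm26737 complete the 7. Gm13205, inside the transcription factor gene Casz1, was at 0.46, 0.3 and 0.8 FPKM in quiescent and 1.39, 1.19 and 3.56 FPKM in activated libraries (log2 fold change 0.94 ± 0.31, limma adjusted p = 0.0338), on an estimated 3.01 to 38.1 reads per library. Gm26737, opposite the ubiquitin ligase gene Rnf26, was at 2.42, 1.12 and 0.9 FPKM and then 5.53, 3.63 and 2.18 FPKM (0.93 ± 0.31, adjusted p = 0.0349). Their calls were lost without any one of 3 and 4 libraries. Gm13205 met the level of the rule only with its activated libraries, which partly set its direction. Its groups were apart, while Gm26737 was the only one of the 21 called genes whose groups overlapped.

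**Figure D2:**
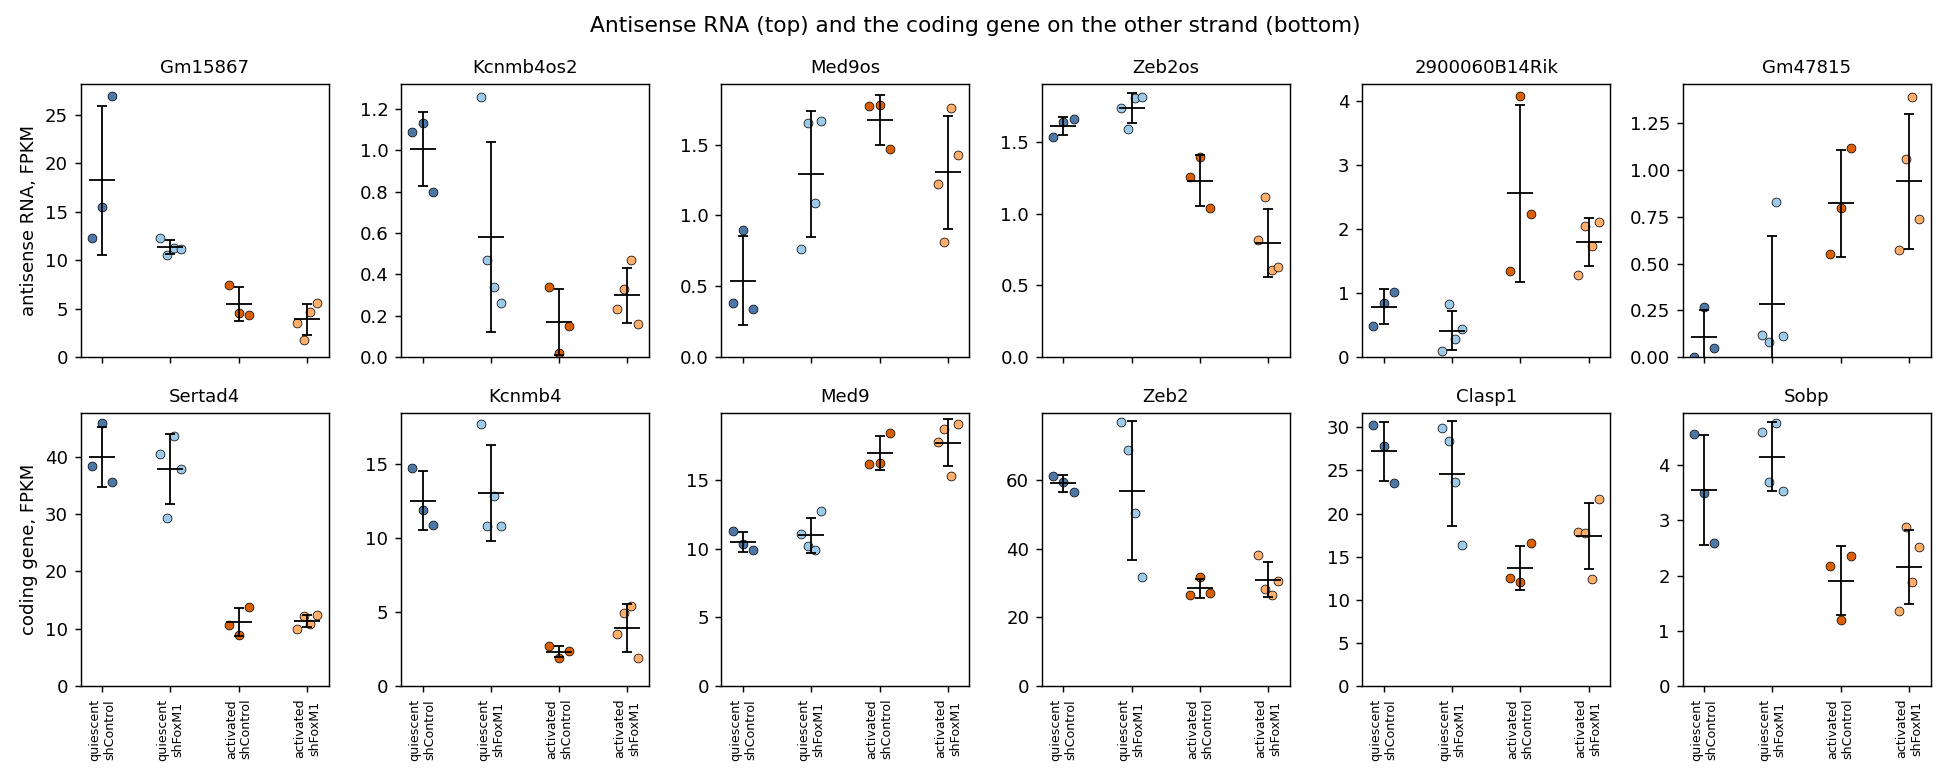
FPKM of 6 antisense RNAs (top row) and of the coding gene on the other strand (bottom row) in each of the 4 groups. Points are libraries and bars are the mean ± SD (n = 3 for shControl and n = 4 for shFoxM1 groups). Gm15867 and Sertad4 are both lower in activated cells, 2900060B14Rik and Gm47815 are higher while Clasp1 and Sobp are lower, and Med9os has its lowest mean, 0.54 FPKM, in quiescent shControl cells.

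In shFoxM1 cells activation changed 15 of the 106 genes, 10 of them downwards and 5 upwards. That is 14.2%, against 30.7% of all genes tested (18.3% higher, 12.3% lower) and 22.6% of lincRNA genes. The median log2 fold change was -0.08 over the 106 genes and 0.03 over all genes tested. In 9 of the 106 (8.49%) the 4 activated and 4 quiescent libraries did not overlap, against 27.8% of all genes. At an unadjusted p below 0.05 there were 26 (24.5%), against 41.3% of all genes. Higher and lower calls numbered 10 and 4 with quantile normalization and 1 and 18 with equal sums of coding genes. Without quiescent shFoxM1 replicate 4 the count was 25, of which 14 were among the 15. Without quiescent replicate 2 or 3 or activated replicate 1 or 2 of these cells it was 8 or 9.

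After Gm15867, the largest fall was that of E130307A14Rik, a transcript that starts 111 bases from Rev3l, the gene of a DNA polymerase used in translesion synthesis. It was at 5.32, 5.09, 6.75 and 2.55 FPKM in quiescent and 2.16, 1.96, 2.04 and 2.77 FPKM in activated shFoxM1 libraries, and at 4.99, 6.51 and 5.87 FPKM and then 3.02, 3.9 and 2.74 FPKM in shControl cells. Quiescent replicate 4 alone lay among the activated shFoxM1 libraries, and the shControl groups were apart. The log2 fold changes were -0.83 ± 0.21 (limma adjusted p = 0.00803) and -0.69 ± 0.24 (adjusted p = 0.0424). The first call held without any single library and the second was lost without any one of 10. Rev3l was at -0.73 ± 0.31 and -0.94 ± 0.36 in shFoxM1 and shControl cells (adjusted p = 0.0867 and 0.0618).

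Zeb2os lies inside Zeb2, the gene of a zinc finger repressor. It stood at 1.74, 1.59, 1.81 and 1.82 FPKM in quiescent and 0.82, 1.12, 0.61 and 0.63 FPKM in activated shFoxM1 libraries. In shControl cells it was at 1.54, 1.64 and 1.66 FPKM and then 1.26, 1.4 and 1.04 FPKM. The groups were apart in both lines, with log2 fold changes of -0.62 ± 0.14 (limma adjusted p = 0.00387) in shFoxM1 and -0.23 ± 0.16 (adjusted p = 0.281) in shControl cells. The shFoxM1 call held without any single library. The difference between the lines was -0.39 ± 0.21 with an unadjusted p of 0.0808. Zeb2 fell in both lines, by 0.80 and 1.03 on the log2 scale. 32.8% of the exon bases of Zeb2os are shared with Zeb2, whose level was far higher (Zeb2os was at 3.04% of it).

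Chrna1os starts 4512 bases from Chrna1, the alpha subunit gene of the muscle acetylcholine receptor, with no shared exon base. It was at 2.16, 3.01, 3.9 and 3.73 FPKM in quiescent and 1.86, 1.77, 1.85 and 1.13 FPKM in activated shFoxM1 libraries, which do not overlap (log2 fold change -0.65 ± 0.20, limma adjusted p = 0.0228). Without quiescent replicate 3 or activated replicate 4 the call was lost. Chrna1 fell in both lines, by 1.02 in shControl and 1.20 in shFoxM1 cells on the log2 scale. Tmem147os, whose start is 39 bases from that of Tmem147, was at 2.92, 1.84, 2.68 and 1.48 FPKM and then 0.56, 0.83, 1.34 and 1.24 FPKM (-0.69 ± 0.19, adjusted p = 0.0128), also without overlap and called without any single library. Tmem147, for a protein of the endoplasmic reticulum membrane, rose in shControl cells (0.61 ± 0.15) and was at 0.30 ± 0.13 in shFoxM1 cells. Gm13563, opposite Entr1, and Gm16536, inside the beta-secretase gene Bace1, fell by 0.60 and 0.55. Gm13563 was at 1.53, 1.24, 1.55 and 0.85 FPKM in quiescent and 0.08, 0.62, 0.4 and 1.05 FPKM in activated shFoxM1 libraries, so that 1 library of each group crossed into the other. Gm16536 was at 3.37, 3.67, 2.63 and 1.87 FPKM and then 1.93, 1.61, 1.01 and 1.98 FPKM, and its groups overlapped too. Both calls were lost without any one of 6 libraries. Bace1 fell in both lines.

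Of the 5 that rose, Gm20632 and Gm20628 had log2 fold changes of 0.76 ± 0.21 and 0.75 ± 0.26 in shFoxM1 cells, calls lost without any one of 1 and 7 libraries, and 2900060B14Rik and Gm47815 are given above. Gm43079, which cannot be told apart from Acad9, was at 7.82, 7.87, 3.7 and 6.93 FPKM in quiescent and 9.7, 13.55, 9.74 and 9.85 FPKM in activated libraries (0.66 ± 0.22, limma adjusted p = 0.035). Its groups did not overlap, and the call was lost without any one of 4 libraries.

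9 genes were called in both lines, which is 42.9% of the 21 called in shControl and 60.0% of the 15 called in shFoxM1 cells. Over all genes tested these shares were 72.3 and 66.6%. They are Gm15867, E130307A14Rik, Gm13563, 1600020E01Rik and Gm16845, which fell, and Gm20632, Gm20628, 2900060B14Rik and Gm47815, which rose. The shControl call of Gm13563 was lost without any one of 7 libraries. Gm13563 and Gm16845 met the level of the rule only with the quiescent libraries. All 27 genes called in either line had the same sign of change in both, a share that was not taken over all genes tested. For Med9os and 9130221H12Rik that sign means little, since their log2 fold changes in shFoxM1 cells were 0.01 and -0.002. The sign of Med9os there changed with the processing. 12 were called in shControl cells alone and 6 in shFoxM1 cells alone, and no gene passed the test of the difference between the lines.

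**Figure D3:**
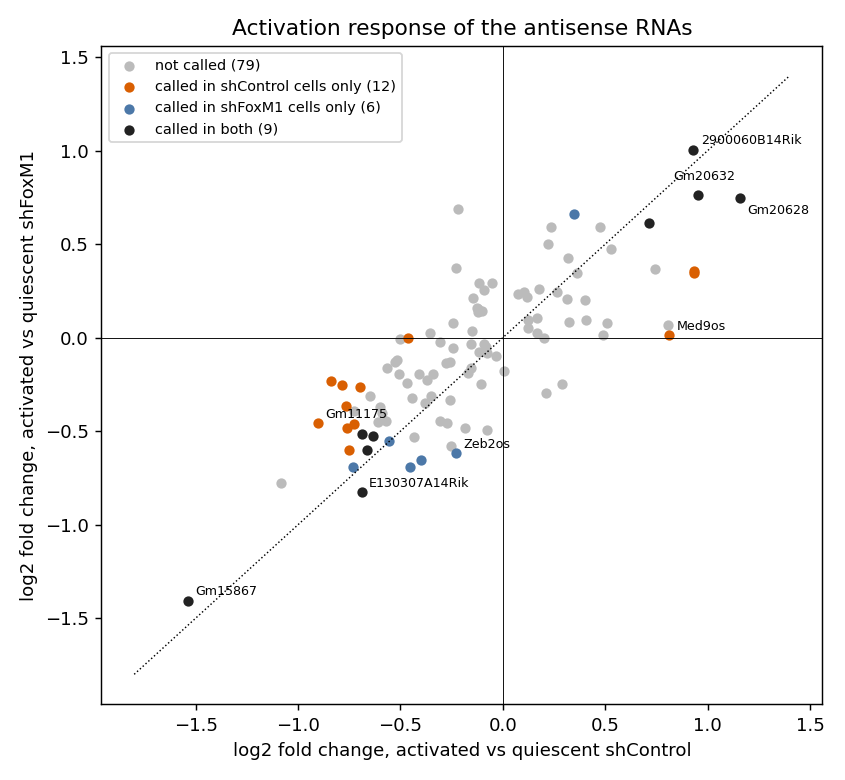
Log2 fold change between quiescent and activated cells with shControl (horizontal axis) and with shFoxM1 (vertical axis) for the 106 antisense genes. Colours give where a gene was called at an adjusted p below 0.05, and the dotted line marks equal change. Gm15867 lies at the lower left at -1.54 and -1.41, and Med9os lies near the horizontal axis line at 0.81 and 0.01.

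90 of the 106 genes were paired with a tested coding gene on the other strand, and the antisense level was a median of 10.4% of the coding level. The tested coding gene with the longest overlap was taken or, with no overlap with any coding gene, the nearest coding start within 5000 bases. Genes that overlap only untested coding genes were left out, even with a tested coding start beside them. Tmem147os and Gm4673, which fell while Tmem147 and Usf2 did not, are thus in none of the pair counts below. The values below depend on that choice. 7 antisense genes were above their coding gene on average. E130307A14Rik was at 3.34 times the level of Traf3ip2, an adaptor gene of interleukin 17 signalling, and above it in all 14 libraries. It was not above Rev3l, the gene that starts next to it, in most groups. Rev3l had means of 6.92, 7.18, 3.08 and 3.47 FPKM in quiescent shControl, quiescent shFoxM1, activated shControl and activated shFoxM1 cells. Those of E130307A14Rik were 5.79, 4.93, 3.22 and 2.23 FPKM. Dnm3os was at 2.82 times Dnm3, above it in 13 libraries, and 1810034E14Rik at 2.25 times the phosphatase gene Cdc14b, also in 13. Brip1os was at 1.66 times the Integrator subunit gene Ints2 in 13 libraries, and Tug1 at 1.31 times Morc2a in 11. C330018A13Rik and Ccdc142os were at 1.24 and 1.14 times Ccdc60 and Gm42688, above them in 8 and 6 libraries, so these last 2 pairs were not separated. Ccdc142, also opposite Ccdc142os, had a higher mean than Gm42688 in each group.

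**Figure D4:**
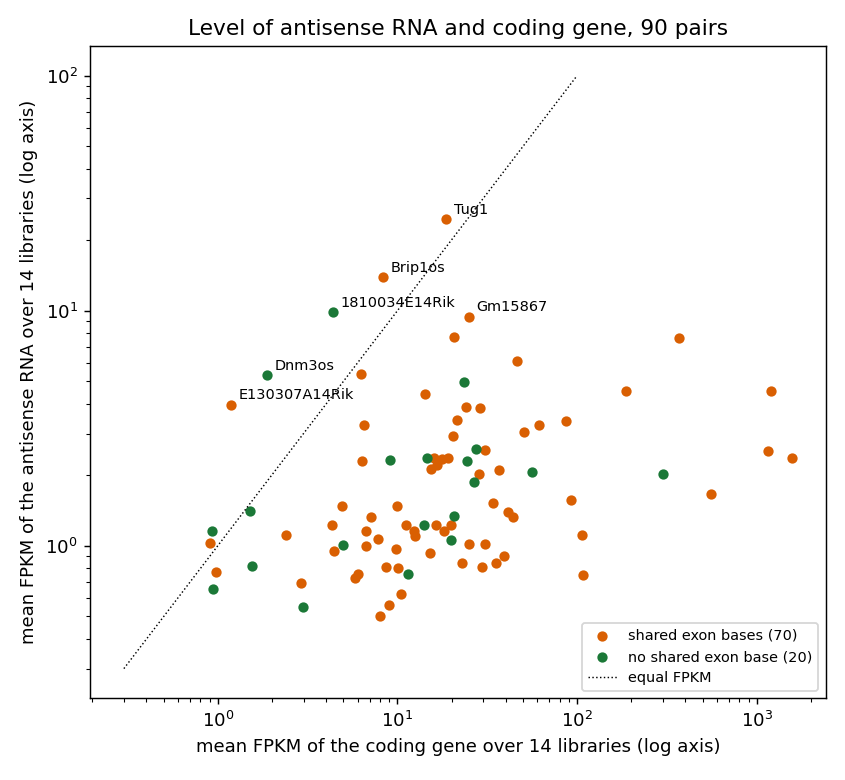
Mean FPKM over 14 libraries of each coding gene (horizontal, log axis) and of the antisense RNA opposite it (vertical, log axis), 90 pairs. Colour marks whether exon bases are shared within the pair, and the dotted line marks equal levels. 7 points lie above that line, among them Tug1 at 24.5 FPKM.

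On activation of shControl cells 19 of the 90 antisense genes and 25 of their coding genes were called, beside 29.5% of all coding genes tested. Both were called in 8 pairs, in the same direction in 6 and in opposite directions in 2. The 6 are Gm15867 with Sertad4, Kcnmb4os2 with Kcnmb4, Gm26881 with Fam214b, Med9os with Med9, Gm20628 with Hist2h3b and Gm20632 with Hist2h2aa2. The 2 opposite pairs are 2900060B14Rik with Clasp1 and Gm47815 with Sobp. In both the antisense gene lies inside the coding gene and shares no exon base with it. Of these 8 antisense genes Kcnmb4os2, Gm26881, 2900060B14Rik and Gm47815 met the level of the rule in 1 state only, so their direction is no independent result. In 11 pairs the antisense gene alone was called and in 17 the coding gene alone. The signs matched in 66.7% of pairs, and Pearson's r between the fold changes was 0.53 across the 90 pairs, as a description, because both values of a pair come from the same libraries. It was 0.62 over the 70 pairs with exon bases shared within the pair and 0.49 over the 20 without. Of these 20, A930015D03Rik and BC037039 share 90.3 and 70.7% of their exon bases with other genes on the other strand. The 20 are thus not all free of reads from shared exons. Over the 30 pairs whose coding gene has the nearest coding start, within 1000 bases, it was 0.72, and over the other 60 it was 0.44. Signs matched in 76.7 and 61.7% of these pairs. Gm20632 and Hist2h2aa2, with starts 883 bases apart, count among the 60 because Hist2h3c2 starts nearer. These correlations were not compared by a test.

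In shFoxM1 cells 13 antisense and 26 coding genes of the 90 pairs were called, beside 30.7% of all genes and 32.4% of coding genes tested. 6 pairs had both called in the same direction, namely Gm15867, Gm20632 and Gm20628 with the genes named above, Zeb2os with Zeb2, Chrna1os with Chrna1 and Gm16536 with Bace1. Gm47815 and Sobp were again opposite. The signs matched in 62.2% of pairs, with r of 0.43 across the 90 pairs. It was 0.50 over those with and 0.30 over those without exon bases shared within the pair. Over the 30 pairs with the nearest start within 1000 bases r was 0.53, and over the other 60 it was 0.39. Signs matched in 60.0 and 63.3% of these, so the higher match of those 30 pairs in shControl cells was not seen here.

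**Figure D5:**
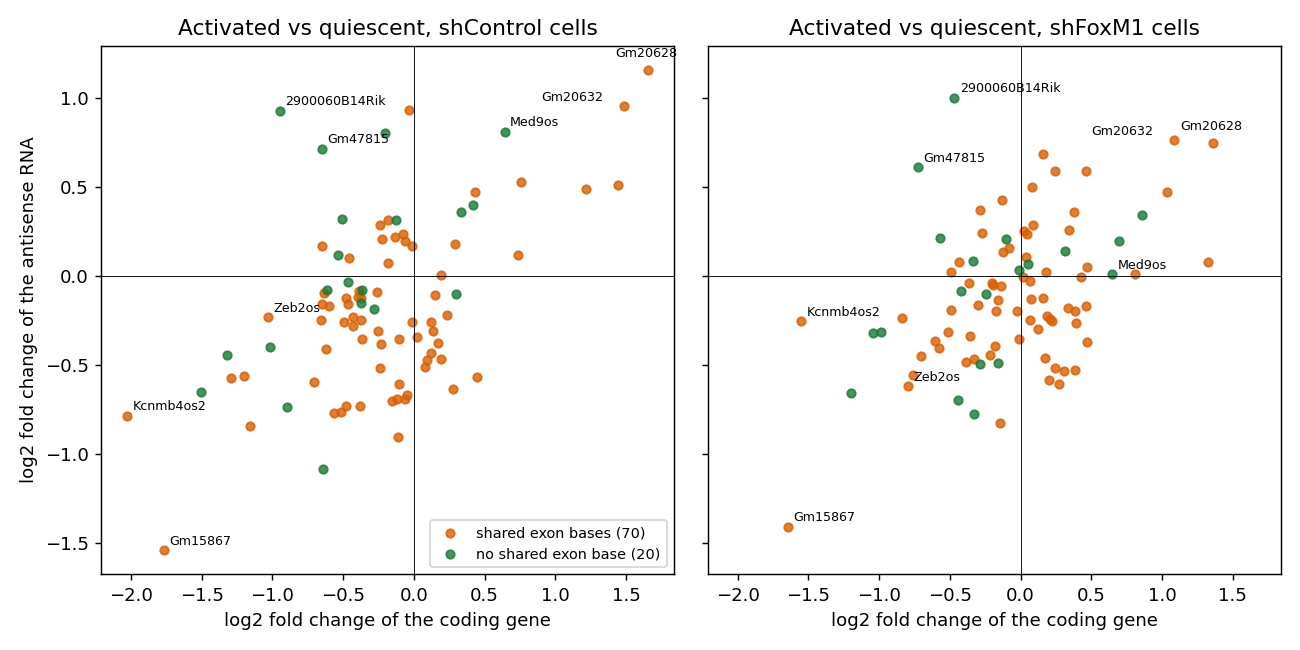
Log2 fold change on activation of each coding gene (horizontal axis) and of the antisense RNA opposite it (vertical axis) in shControl cells (left, r = 0.53) and shFoxM1 cells (right, r = 0.43), 90 pairs each. Colour marks whether exon bases are shared within the pair. Gm15867 lies at the lower left in both panels, and 2900060B14Rik and Gm47815 lie at the upper left.

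Dnm3os, shown above for its microRNAs, was at 9.38, 7.22 and 6.19 FPKM in quiescent and 3.71, 3.12 and 2.33 FPKM in activated shControl libraries. In shFoxM1 cells it was at 10.33, 8.74, 8.86 and 1.59 FPKM and then 2.96, 3.73, 3.06 and 3.32 FPKM. Quiescent shFoxM1 replicate 4 was the lowest of all 14 libraries, and the other 6 quiescent libraries lay above all 7 activated ones. The log2 fold changes were -1.08 ± 0.405 (limma adjusted p = 0.0579) and -0.78 ± 0.35 (adjusted p = 0.109), so that it was called in neither line.

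FoxM1 knockdown was not followed by a called change in any of these RNAs. By limma none of the 106 was called in quiescent or in activated cells, as 0.0% of all genes tested were. At an unadjusted p below 0.05 there were 3 of the 106 in quiescent cells, against 2.12% of all genes, and 4 in activated cells, against 7.87%. The 3 in quiescent cells, named for their small number, were Med9os (log2 difference 0.57 ± 0.20), Gm17092 (0.43 ± 0.20) and 1810034E14Rik (0.84 ± 0.32), all higher with shFoxM1. 1810034E14Rik was at 8.63, 3.28 and 5.4 FPKM in quiescent shControl and 14.58, 8.06, 16.09 and 6.16 FPKM in quiescent shFoxM1 libraries, which overlap.

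The 4 in activated cells were Zeb2os (-0.32 ± 0.15), the antisense-type gene ENSMUSG00000085492, which the annotation calls Trmt61b (0.41 ± 0.18), 9130221H12Rik (0.38 ± 0.15) and Gm26982 (0.47 ± 0.20). 9130221H12Rik, inside the kinase gene Gsk3a, was at 2.57, 2.68 and 3.43 FPKM in activated shControl and 3.65, 4.42, 3.73 and 4.4 FPKM in activated shFoxM1 libraries. These do not overlap, and its limma adjusted p was 0.629. Groups did not overlap for 3 of the 106 genes in quiescent cells (2.83%, against 3.12% of all genes) and for 6 in activated cells (5.66%, against 9.4%). The median log2 difference was 0.002 in quiescent and 0.08 in activated cells, beside -0.02 and 0.11 over all genes tested. The difference between the activation responses was called for none of the 106 and for 0.0% of all genes. At an unadjusted p below 0.05 it named Med9os and 9130221H12Rik (0.46 ± 0.21), 2 of 106 against 3.48% of all genes. These 3 comparisons share control or activated libraries with the activations above and are no separate evidence.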

How the data were processed

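Total RNA of 14 C2C12 libraries was sequenced on a HiSeq 2000. The authors deposited a table of FPKM per gene and library. Per the submitters' processing notes, Bowtie 0.12.9, Cufflinks 2.1.1, HTSeq and the build mm10 were used, with their roles not given in the sources used here. Use of strand and the gene annotation release are likewise not given.

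Gene types and positions came from GENCODE M21 by identifier, which matched 49326 of 49585 genes. The 12432 genes that reached 1 FPKM in 3 or more libraries entered 1 model of 4 group means on log2(FPKM + 1) in limma 3.58.1 (R 4.3.3, empirical Bayes with trend). P-values were adjusted by the Benjamini-Hochberg method over all 12432 genes, and a gene was called at an adjusted p below 0.05. Fold changes on this scale understate the change of low genes. Exact permutation tests were two-sided. Read depth was estimated from the step between low FPKM values, so the reads given are estimates. Figures and sequences used Python 3.11.15.

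In data simulated for activation of shControl cells over 12432 genes, 59% of 2-fold and 97% of 4-fold changes of FPKM + 1 were recovered. These changes were placed only in genes whose mean log2(FPKM + 1) was above 1. Recovery was not taken for the antisense genes alone. Their median mean level was 1.48 FPKM, against 12.6 FPKM for the coding genes tested. Since the scale of the model understates changes of low genes, these shares cannot be applied to the antisense genes.

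The genes and lists were chosen with earlier results of these data known. The text names the antisense RNAs on the lists of known RNAs, the 6 with the highest mean, up to 8 called genes in each direction of each comparison, and those at the edge of the rule. Same-numbered libraries were not treated as pairs, since their deviations did not all correlate. Some libraries with different numbers did deviate together, such as activated shControl replicate 3 and activated shFoxM1 replicate 4 (r = 0.666). Others deviated in opposite ways, such as activated shControl replicate 2 and activated shFoxM1 replicate 4 (r = -0.684). The model has no term for this and takes the libraries as independent. Alternatives were other pseudocounts, filters, scalings, weights, a GC and length trend, a replicate block and leaving out each library.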

Additional observations from a re-analysis of the deposited data

Results flagged for a closer look

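In 5 of the 64 groups of 4 shFoxM1 libraries examined for the 32 named genes, 1 library lay far from the other 3. Chance alone gives such a library in about 1 in 20 groups. Airn was at 2.57 FPKM in activated replicate 4, while the others lay between 1.04 and 1.14 FPKM. Chrna1os was at 1.13 FPKM in activated replicate 4, against 1.77 to 1.86 FPKM. Gm26737 was at 3.21 FPKM in quiescent replicate 4, against 1.22 to 1.44 FPKM. Gm43079 was at 13.55 FPKM in activated replicate 2, against 9.7 to 9.85 FPKM. Gm47815 was at 0.83 FPKM in quiescent replicate 3, against 0.08 to 0.12 FPKM.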

How the results depend on the processing

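The counts of called genes moved with the settings. For activation in shControl cells (21 called) they were 1 at an adjusted p below 0.01, 11 with no filter on low values, 78 with array weights, which did not converge, and 33 with shFoxM1 replicates 1 to 3 only. Leaving out 1 library gave 6 to 32. For activation in shFoxM1 cells (15 called) the counts were 4, 9, 46 and 26 in the same order, 9 with only the groups compared, 23 with a GC and length trend removed and 27 with that and a replicate block. Leaving out 1 library gave 8 to 25. Array weights called 21 and 22 genes for knockdown in quiescent and activated cells and 19 for the difference between the responses, where the main count was 0. The replicate block alone gave 26 and 15 for the activations and 0 for the rest, with Airn in shFoxM1 cells and Gm13563 in shControl cells not called. The Med9os value in shFoxM1 cells, 0.01, changed sign to -0.003 with median-of-ratios scaling, -0.126 with equal coding sums, -0.177 with array weights, -0.107 with the GC and length trend removed, with or without the block, and ranged from -0.107 to 0.123 without 1 library (among these -0.08, -0.025 and -0.018). The causes were not tested. Over the calls of named genes, 300 values stayed past the threshold and 83 did not under the settings other than leaving out 1 library, and 313 stayed and 107 did not without 1 library, all in the same direction. Of the 37 genes with estimates, 9 had under 10 reads per FPKM, which limits their precision.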
